A study of Mus musculus with 16 samples.

Results

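The genes of cholesterol synthesis, uptake and efflux were followed in mouse mammary gland as a set of 31 genes chosen by name for their known roles. Of these, 30 had a row in the gene table of 24187 rows. All 30 passed the test limit, a mean of 1 FPKM (fragments per kilobase of gene, scaled for each library) over the 7 RNA libraries. The lowest mean was that of Lss at 3.49 FPKM, so none of them lay close to that limit. Hmgcs1, the cytosolic synthase that makes HMG-CoA, had no expression value used here and enters only the promoter counts.

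The RNA came from whole mammary gland at day 13 of pregnancy, as 3 libraries of Socs2-Δs mice (called Mut in the titles) and 4 libraries of wild-type C57BL/6 mice. The Socs2-Δs line was made by CRISPR/Cas9 editing and the wild-type mice were bought, so genotype and source of the animals cannot be told apart. Socs2 encodes an inhibitor of cytokine signalling through JAK and STAT proteins. The labels do not say that replicates were separate animals, and p-values then measure only the spread between these libraries. The genotype tag of the 3 mutant libraries reads wild type, against their titles, which were used here.

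Socs2 itself was listed at 17.1, 13.9 and 16.0 FPKM in the 3 Mut libraries, against 25.6, 22.1, 24.8 and 16.1 FPKM in wild-type replicates 1 to 4. Wild-type replicate 4 lay within the Mut values, and the difference did not pass the test (log2 difference -0.46, SE 0.19, limma adjusted p = 0.267). Each library held 21.3 to 24.5 M (mega) recovered reads, and the members had 170 to 16101 recovered reads per library. Such counts are known only up to a factor common to a gene's libraries. The 7 casein, whey and other alveolar markers were above 0 in every library, as were the epithelial and fat cell markers of the gland.

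Wild-type replicates 3 and 4 departed from the rest of the libraries in several transcripts, and values are also given without them. Their sum of Neat1 and Malat1, nuclear RNAs listed here as a possible sign of RNA quality, was 24.7 and 25.6 FPKM. It was 472.2 to 628.4 FPKM in the other libraries, and the cause was not tested. Liver transcripts other than Trf, which the mammary gland also makes, summed to 527.3 and 2220 FPKM there and to 44.0 to 342.3 FPKM in the others. The planned liver list, with Trf, did not set these 2 libraries apart. It summed to 1460, 1369, 1929 and 2803 FPKM in wild-type replicates 1 to 4, and was higher in Mut libraries, at 3647, 4580 and 5123 FPKM. Salivary gland transcripts summed to 407.3 and 236.9 FPKM in wild-type replicates 3 and 4, against 34.3 to 84.8 FPKM elsewhere. Of all genes tested, 25.1% were highest in these libraries, with both values above those of the other 5, and 25.2% were lowest.

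Cells make cholesterol from acetyl-CoA by way of mevalonate, isoprenoid diphosphates, squalene and lanosterol. The enzymes are switched on together by the membrane-bound factor SREBP2, which Scap carries out of the endoplasmic reticulum when sterols are low and Insig proteins hold back when sterols are high. Surplus cholesterol is stored as ester or exported through ABC transporters under the oxysterol-sensing LXR receptors. In the mammary gland cholesterol serves growing epithelial membranes and the milk fat globule, and fat cells and macrophages of the gland also store and move it.

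Promoters are shown for 4 members with separate groups, those of smallest p among the ones that held a CCAAT box. This is the binding motif of NF-Y, a factor known to act beside SREBP at these genes. The windows are the 250 bases before the RefSeq start on the build GRCm38.p6, read 5′ to 3′ on the strand of the gene, with each CCAAT or its reverse complement ATTGG in capitals. Msmo1 lies at chr8:64733579-64733828 on the minus strand, Insig1 at chr5:28071162-28071411, Mvk at chr5:114444019-114444268 and Idi1 at chr13:8885356-8885605, these 3 on the plus strand.
Msmo1: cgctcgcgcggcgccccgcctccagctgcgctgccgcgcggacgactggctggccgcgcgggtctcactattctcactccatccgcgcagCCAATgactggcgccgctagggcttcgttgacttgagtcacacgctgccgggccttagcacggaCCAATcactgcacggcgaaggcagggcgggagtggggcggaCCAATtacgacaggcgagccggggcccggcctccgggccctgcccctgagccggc
Insig1: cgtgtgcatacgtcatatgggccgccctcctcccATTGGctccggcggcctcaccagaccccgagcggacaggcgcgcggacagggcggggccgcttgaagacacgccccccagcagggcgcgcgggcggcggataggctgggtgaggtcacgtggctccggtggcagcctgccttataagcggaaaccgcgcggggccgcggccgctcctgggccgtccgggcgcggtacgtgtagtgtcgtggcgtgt
Mvk: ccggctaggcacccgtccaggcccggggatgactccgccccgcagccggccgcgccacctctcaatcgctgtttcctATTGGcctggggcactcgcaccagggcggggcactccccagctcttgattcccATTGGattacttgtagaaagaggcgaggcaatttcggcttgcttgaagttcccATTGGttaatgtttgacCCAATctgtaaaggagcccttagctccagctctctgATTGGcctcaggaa
Idi1: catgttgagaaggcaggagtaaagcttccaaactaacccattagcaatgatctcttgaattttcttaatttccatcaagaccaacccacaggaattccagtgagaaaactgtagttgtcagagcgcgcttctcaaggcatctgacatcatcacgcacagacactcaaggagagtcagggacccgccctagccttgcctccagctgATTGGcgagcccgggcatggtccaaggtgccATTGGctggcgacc
Mvk held 5 boxes and Msmo1 3, Idi1 held 2 within 45 bases of the start, and Insig1 held 1, which lay 216 bases before the start. In windows from 250 bases before to 50 after the start, 20 of the 25 members with a promoter (80.0%) held the box. Both strands were searched. Hmgcs1, without an expression value, is among the 20. The share was 41.06% of the 27025 genes with a promoter, whether expressed here or not. Of the 13 members with separate groups and a promoter, 10 held the box, a share near that of all 25. The sterol element TCACNCCAC was found in 1 of the 25, Hmgcs1, and in 1.44% of those 27025 genes. The STAT palindrome TTCNNNGAA was found in 1 of the 25, Ebp, and in 9.55% of those 27025 genes. These matches describe letters only, and a promoter without a match may still be bound.

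Most of the set was lower in Mut glands, led by Insig1, Msmo1, Idi1 and Cyp51, but no member passed the test against all 4 wild-type libraries. The log2 difference, Mut minus wild type on log2(FPKM + 1), was below 0 for 24 of 30 members and above 0 for 6, with a median of -0.34. Over all 13392 genes tested the median was -0.004, and 50.4% lay below 0. Called at an adjusted p under 0.05 were 0 of 30 members (limma, adjusted p 0.167 to 0.969), against 0.0448% of all genes, 6 in number and all higher in Mut. At an unadjusted p under 0.05, 10 members were lower and 2 higher, against 8.98% and 9.12% of all genes.

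The groups did not overlap for 15 of 30 members, against 22.5% of all genes. Of these, 11 were lower and 4 higher in Mut, against 10% and 12.5% of all genes. The members with lower values in all 3 Mut libraries were Mvk, Idi1, Fdft1, Cyp51, Msmo1, Dhcr7, Lbr, Insig1, Npc2, Soat1 and Nr1h3. Those with higher values were Mvd, Scap, Npc1 and Nr1h2. Since the enzymes share regulators and libraries, their values are not independent of each other.

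Wild-type replicates 3 and 4 were both above the other 5 libraries for 17 of 30 members and both below for 2, Scap and Nr1h2, against the 25.1% and 25.2% of all genes given above. Against wild-type replicates 1 and 2 alone, 20 members had a log2 difference below 0 and 10 above, with a median of -0.14, where all genes had 44.9% below 0 and a median of 0.03. In that comparison 1 of 30 members passed the test, Mvk, against 1.94% of all genes, 0.68% called lower and 1.26% called higher. At an unadjusted p under 0.05, 7 members were lower and 3 higher, against 10.8% and 9.35% of all genes. The groups then did not overlap for 12 members lower and 5 higher, against 18.1% and 21.8% of all genes, or 39.9% in either direction.

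**Figure D1:**
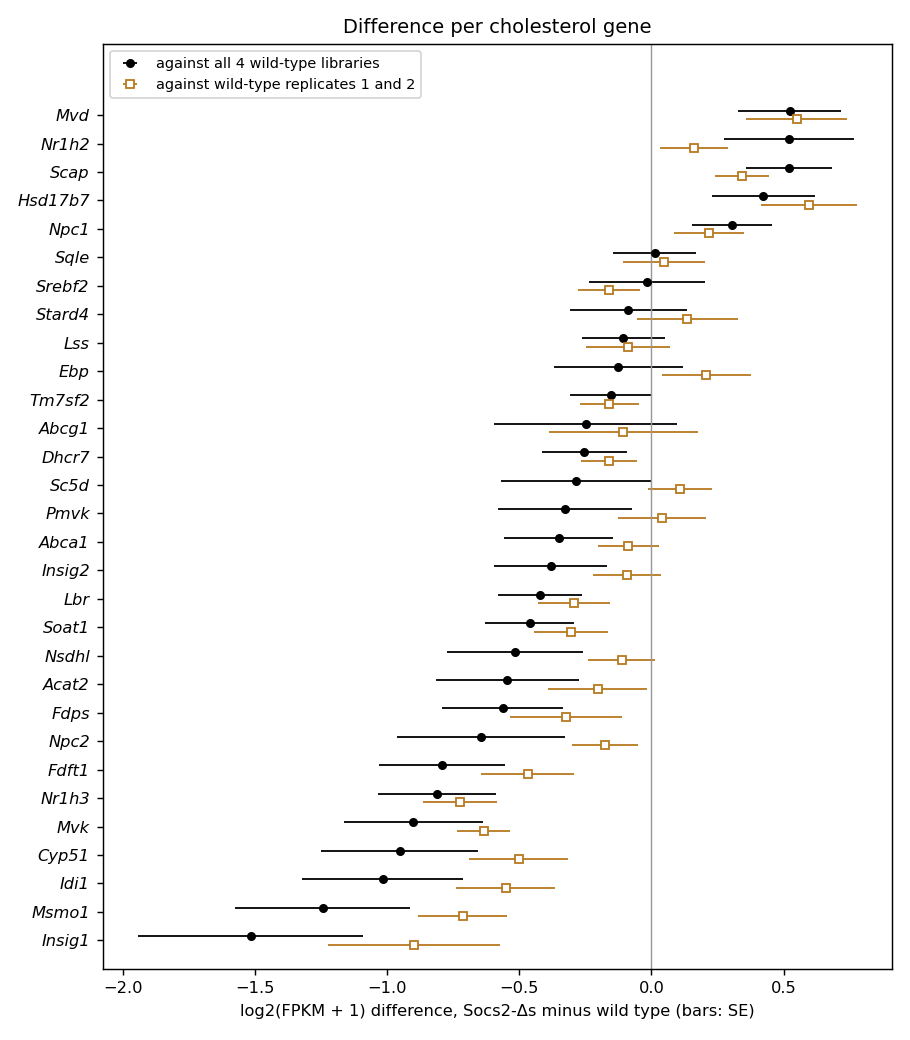
Log2 difference of each of the 30 members on log2(FPKM + 1), Mut minus wild type, with its standard error, sorted by size, against all 4 wild-type libraries and against wild-type replicates 1 and 2 alone. Insig1 lay lowest at -1.52, and most members lay closer to 0 when replicates 3 and 4 were left out.

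Among the mevalonate steps, 5 of 6 enzymes were lower in Mut and 1 was higher, with a median log2 difference of -0.55 against all 4 wild-type libraries and -0.26 against replicates 1 and 2. Mvk, the kinase that phosphorylates mevalonate (Entrez 17855), had 7.26, 8.01 and 7.39 FPKM in Mut libraries, against 12.0, 12.5, 12.8 and 25.7 FPKM in wild type. The Mut values lay close together and below every wild-type value, and wild-type replicate 4 lay far above the other 3. Its means were 7.55 ± 0.403 FPKM in Mut (SD, n = 3) and 15.8 ± 6.65 FPKM in wild type (SD, n = 4). The log2 difference of -0.90 (SE 0.26) did not pass against all 4 (limma adjusted p = 0.182).

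Against wild-type replicates 1 and 2, Mvk fell by 0.63 on the log2 scale (SE 0.10, limma adjusted p = 0.0478), a ratio of 0.615. The call rests on every library kept. Leaving out 1 more of the 5 gave log2 differences of -0.67 to -0.61 with adjusted p of 0.108 to 0.282, highest without wild-type replicate 1. Over the planned settings other than leaving out replicates 3 and 4, the adjusted p of Mvk was 0.120 to 0.472.

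Idi1, which isomerises the isoprenoid building block, had 10.5, 10.7 and 14.2 FPKM in Mut libraries, against 15.2, 20.4, 32.9 and 36.2 FPKM in wild type. The 3 Mut libraries were the lowest, wild-type replicate 1 came next, and replicates 3 and 4 were the highest. The log2 difference was -1.02 (SE 0.31, adjusted p = 0.186), and -0.55 (SE 0.19, adjusted p = 0.185) against replicates 1 and 2, neither of which passed limma's test. Mvd, the decarboxylase that follows the mevalonate kinases, ran the other way at 13.1, 15.1 and 16.8 FPKM in Mut libraries, against 8.06, 12.1, 12.3 and 8.57 FPKM in wild type. Every Mut value was above every wild-type value, and replicates 3 and 4 lay within the range of replicates 1 and 2 or just above it. Its log2 difference of 0.52 (SE 0.19) did not pass limma's test (adjusted p = 0.237) and was 0.55 against replicates 1 and 2.

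The other mevalonate enzymes overlapped between the groups. Fdps, the synthase of farnesyl diphosphate, averaged 24.1 ± 1.92 FPKM in Mut and 37.0 ± 9.03 FPKM in wild type (SD, n = 3 and 4). Wild-type replicate 1, at 23.8 FPKM, lay among its Mut values. Acat2, the thiolase that joins acetyl-CoA units, averaged 28.1 ± 2.98 FPKM in Mut and 43.1 ± 14.7 FPKM in wild type. Leaving out replicates 3 and 4 took the log2 difference of Acat2 to -0.20, against -0.55 with all 4, and that of Fdps to -0.32, against -0.56. Pmvk, the second kinase of the branch, averaged 17.1 ± 2.01 FPKM in Mut and 22.4 ± 6.91 FPKM in wild type, and its ratio against replicates 1 and 2 was 1.02.

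Of the 12 sterol-branch enzymes, 10 were lower in Mut and 2 higher, with a median log2 difference of -0.27, and -0.14 against replicates 1 and 2. Msmo1, the methylsterol oxidase, had the lowest ratio of Mut to wild-type means among the synthesis enzymes, 0.357. It had 6.04, 5.94 and 6.75 FPKM in Mut libraries, against 9.03, 13.1, 21.2 and 26.6 FPKM in wild type. The groups did not overlap, and the wild-type libraries spread over a far wider range than the Mut libraries. Its log2 difference was -1.24 (SE 0.33, limma adjusted p = 0.167), and -0.71 (SE 0.17, adjusted p = 0.0963) against replicates 1 and 2.

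Cyp51, the demethylase of lanosterol, had 4.87, 4.27 and 5.27 FPKM in Mut libraries, against 5.81, 8.87, 15.1 and 13.5 FPKM in wild type. Fdft1, the squalene synthase at the branch point to sterols, had 7.31, 7.13 and 9.63 FPKM in Mut libraries, against 9.97, 13.0, 18.1 and 18.7 FPKM in wild type. For both, wild-type replicate 1 was just above the highest Mut value and replicates 3 and 4 were highest. The log2 differences were -0.95 for Cyp51 (adjusted p = 0.196) and -0.79 for Fdft1 (adjusted p = 0.186), and -0.50 and -0.47 against replicates 1 and 2, none past limma's threshold.

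Lbr, an inner nuclear membrane protein that is also a sterol reductase, had 12.6, 16.4 and 14.9 FPKM in Mut libraries, against 17.5, 18.7, 21.9 and 21.6 FPKM in wild type. Dhcr7, the reductase that yields cholesterol, had 8.64, 7.84 and 8.68 FPKM in Mut libraries, against 9.08, 9.89, 9.17 and 13.0 FPKM in wild type. Both were lower in every Mut library, by small margins for Dhcr7. Neither passed limma's test, with log2 differences of -0.42 (adjusted p = 0.242) for Lbr and -0.25 (adjusted p = 0.392) for Dhcr7, and -0.29 and -0.16 against replicates 1 and 2.

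The remaining sterol enzymes overlapped between the groups. Hsd17b7, a sterol ketoreductase, had 4.25, 5.77 and 6.62 FPKM in Mut libraries, against 3.12, 3.44, 4.0 and 4.91 FPKM in wild type. Only wild-type replicate 4 reached into its Mut range, and the log2 difference of 0.42 (SE 0.19, limma adjusted p = 0.289) was 0.60 against replicates 1 and 2. Nsdhl, which acts with Msmo1 in removing methyl groups, averaged 9.5 ± 0.61 FPKM in Mut and 14.6 ± 5.01 FPKM in wild type, and its ratio was 0.914 against replicates 1 and 2. Sqle, the squalene epoxidase and a rate-limiting step, was nearly level at 17.2 ± 1.24 FPKM in Mut and 17.1 ± 2.37 FPKM in wild type. Lss, the cyclase that forms lanosterol, averaged 3.31 ± 0.57 FPKM in Mut and 3.63 ± 0.387 FPKM in wild type. Sqle and Lss varied least of all members, by 1.37-fold between their lowest and highest library. Ebp, the sterol isomerase, Sc5d, the desaturase, and Tm7sf2, another sterol reductase, had log2 differences of -0.13, -0.29 and -0.15. Against replicates 1 and 2 the direction turned for Ebp (0.21) and Sc5d (0.11), and was -0.16 for Tm7sf2.

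Summed over the 18 synthesis enzymes, Mut libraries had 226.7, 230.8 and 259.1 FPKM, against 230.3, 299.8, 397.3 and 416.0 FPKM in wild-type replicates 1 to 4. Wild-type replicate 1 lay among the Mut libraries, replicate 2 above them, and replicates 3 and 4 highest. Of the 18 enzymes, wild-type replicate 1 exceeded all 3 Mut libraries for 8 and was below all of them for 6. The count above all 3 was 13 for replicate 2, 15 for replicate 3 and 13 for replicate 4. Of all genes tested, 27.0%, 27.4%, 41.8% and 40.8% were above all 3 Mut libraries in wild-type replicates 1 to 4. Replicate 1 was below all 3 for 37.8% of all genes tested, against 33.3% of the 18 enzymes.

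**Figure D2:**
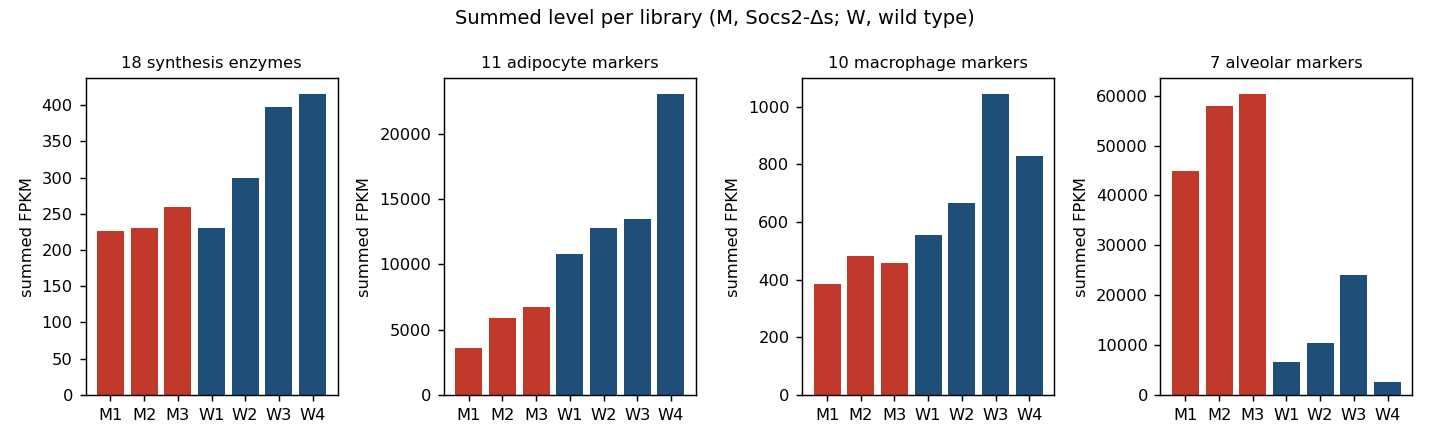
Summed FPKM in each library (bars) of the 18 synthesis enzymes and of the adipocyte, macrophage and alveolar markers, with Socs2-Δs libraries as M1 to M3 and wild-type libraries as W1 to W4. Wild-type replicate 1, at 230.3 FPKM, lay level with the Mut libraries, and replicates 3 and 4, at 397.3 and 416.0 FPKM, lay highest.

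Marker sums of several cell types also differed between the groups. The 11 adipocyte markers summed to 3556, 5856 and 6741 FPKM in Mut libraries, against 10809, 12754, 13500 and 23089 FPKM in wild type, with none at 0. Their median was 97.8, 109 and 91.6 FPKM in Mut libraries, against 219, 260, 73.9 and 510 FPKM in wild type. The median thus put wild-type replicate 3 below the Mut libraries, where the sum put it above them. The 10 macrophage markers summed to 383.4, 480.7 and 457.8 FPKM in Mut libraries, against 554.3, 664.5, 1046 and 827.8 FPKM in wild type. The 7 fibroblast markers summed to 2066, 1455 and 1571 FPKM in Mut libraries, against 2613, 2377, 2709 and 3054 FPKM in wild type. Macrophage and fibroblast sums were thus lower in every Mut library. The 7 alveolar markers summed to 44849, 57988 and 60433 FPKM in Mut libraries, against 6682, 10435, 24016 and 2520 FPKM in wild type. Luminal epithelial sums overlapped between the groups, at 1402 to 2106 FPKM in Mut and 767.8 to 1717 FPKM in wild type. Basal epithelial sums also overlapped, at 783.9 to 949.3 FPKM in Mut and 484.6 to 926.4 FPKM in wild type. So did endothelial sums, at 92.2 to 109.5 FPKM in Mut and 105.1 to 128.3 FPKM in wild type. The part of any of these cell types in the cholesterol gene differences was not tested, nor was that of the liver and salivary transcripts in replicates 3 and 4. In whole gland, fewer cells of a type and less RNA per cell cannot be told apart.

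Of the 4 SREBP regulators, 3 were lower and 1 higher in Mut. Insig1, which retains the Scap complex and is itself a target of SREBP, had the largest difference of the set. It had 18.5, 11.3 and 15.3 FPKM in Mut libraries, against 20.1, 39.7, 74.5 and 62.5 FPKM in wild type. All Mut values were below all wild-type values, though wild-type replicate 1 was only just above the highest Mut library, and no other member varied as much, 6.61-fold from lowest to highest library. The log2 difference was -1.52 (SE 0.43, limma adjusted p = 0.172), and -0.90 (SE 0.33, adjusted p = 0.208) against replicates 1 and 2.

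Scap, the escort of SREBP, was higher in every Mut library at 25.9, 23.1 and 23.7 FPKM, against 19.1, 18.6, 13.8 and 15.3 FPKM in wild type. Replicates 3 and 4 were the lowest, and the log2 difference of 0.52 (SE 0.16, limma adjusted p = 0.198) was 0.34 (adjusted p = 0.143) against replicates 1 and 2. Insig2, the paralog of Insig1, had 10.5, 9.65 and 12.4 FPKM in Mut libraries, against 11.6, 11.5, 16.2 and 19.5 FPKM in wild type. Its Mut values overlapped those of replicates 1 and 2, against which the log2 difference was -0.09, compared with -0.38 against all 4. Srebf2, the gene of SREBP2 itself, averaged 19.9 ± 0.729 FPKM in Mut and 20.6 ± 5.16 FPKM in wild type, a log2 difference of -0.02 (SE 0.22), and of -0.16 against replicates 1 and 2.

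**Figure D3:**
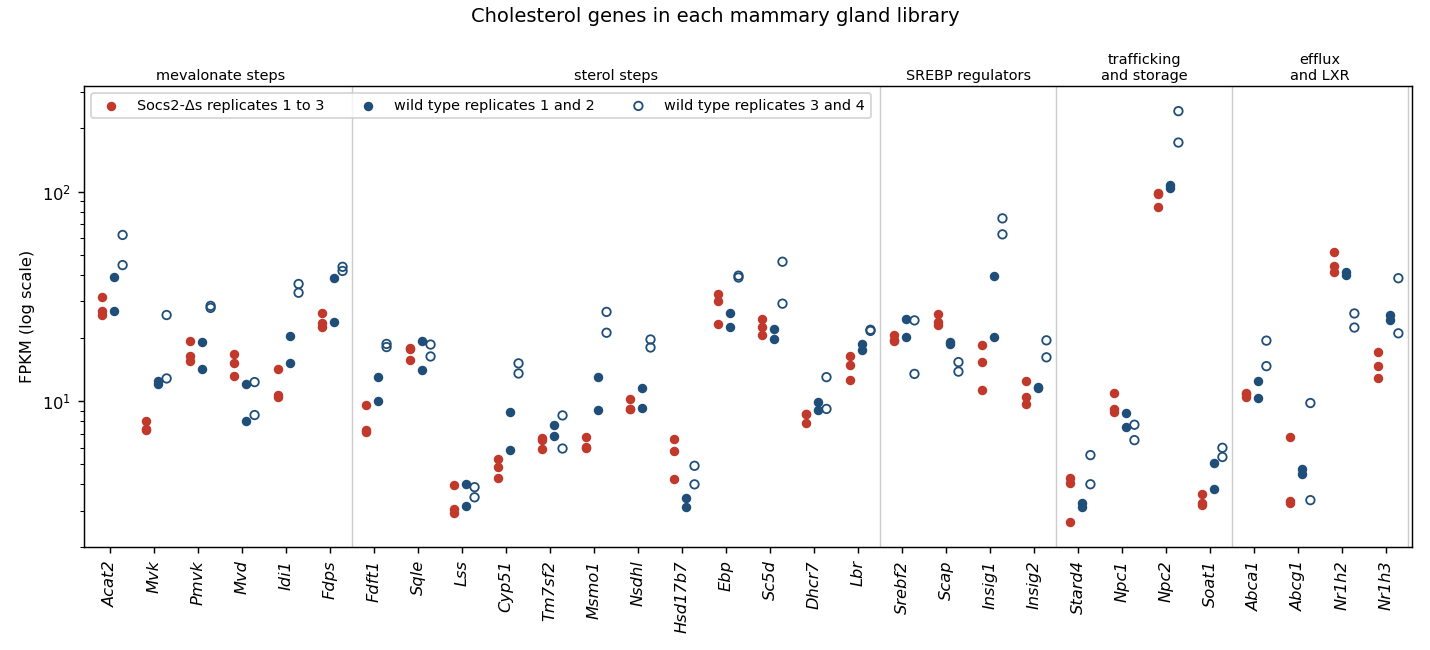
FPKM (log axis) of the 30 members by role, 1 point per library, with filled points for Socs2-Δs (Mut) libraries and wild-type replicates 1 and 2, and open points for wild-type replicates 3 and 4. Insig1 ran from 11.3 to 18.5 FPKM in Mut and from 20.1 to 74.5 FPKM in wild type.

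The trafficking and storage genes differed among themselves in direction. Npc2, the soluble protein that binds cholesterol in the lysosome, was the most abundant member, with 84.6, 98.3 and 97.6 FPKM in Mut libraries, against 107.1, 103.8, 171.4 and 242.0 FPKM in wild type. Npc1, its membrane partner, was higher in Mut at 11, 8.91 and 9.13 FPKM, against 8.77, 7.55, 6.51 and 7.71 FPKM in wild type. The groups were apart for both, by narrow margins next to replicate 1 or 2. Their log2 differences were -0.65 (SE 0.32, limma adjusted p = 0.31) for Npc2 and 0.31 (SE 0.15, adjusted p = 0.311) for Npc1. Against replicates 1 and 2 they were -0.17 for Npc2, a ratio of 0.887, and 0.22 for Npc1, neither past the threshold.

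Soat1, which esterifies cholesterol for storage, had 3.20, 3.61 and 3.27 FPKM in Mut libraries, against 3.79, 5.04, 5.41 and 5.98 FPKM in wild type. Every wild-type library was above the Mut libraries, with a log2 difference of -0.46 (SE 0.17, limma adjusted p = 0.234), and -0.30 against replicates 1 and 2. Stard4, a cytosolic sterol carrier, averaged 3.67 ± 0.906 FPKM in Mut and 3.98 ± 1.1 FPKM in wild type, with overlapping values. Its log2 difference of -0.09 turned to 0.14 against replicates 1 and 2.

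The LXR receptor genes lay in opposite directions. Nr1h3, which encodes LXRα, the form abundant in fat cells and macrophages, had 12.9, 17.2 and 14.7 FPKM in Mut libraries, against 25.9, 24.5, 21.1 and 38.6 FPKM in wild type. All Mut values were lower, and here replicate 3 was the lowest wild-type library. Its log2 difference was -0.81 (SE 0.22, limma adjusted p = 0.168), and -0.72 (SE 0.14, adjusted p = 0.0665) against replicates 1 and 2, next after Mvk among the members. Leaving replicates 3 and 4 out thus moved it less than it moved Insig1 or Idi1.

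Nr1h2, which encodes the widely expressed LXRβ, had 44.3, 51.5 and 41.2 FPKM in Mut libraries, against 40.0, 41.1, 22.4 and 26.2 FPKM in wild type. Its lowest Mut library was only just above wild-type replicate 2, and replicates 3 and 4 were far lower. The log2 difference of 0.52 (SE 0.25, limma adjusted p = 0.298) was 0.16 against replicates 1 and 2. Abca1, which passes cholesterol to lipid-poor apolipoprotein, averaged 10.7 ± 0.246 FPKM in Mut and 14.2 ± 3.88 FPKM in wild type, with replicate 2 just below the lowest Mut value and log2 differences of -0.35 against all 4 and -0.09 against replicates 1 and 2. Abcg1, which passes it to lipoprotein particles, had 3.33, 6.74 and 3.26 FPKM in Mut libraries, against 4.50, 4.76, 3.37 and 9.78 FPKM in wild type, with wide overlap and log2 differences of -0.25 and -0.11 in the same order.

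**Figure D4:**
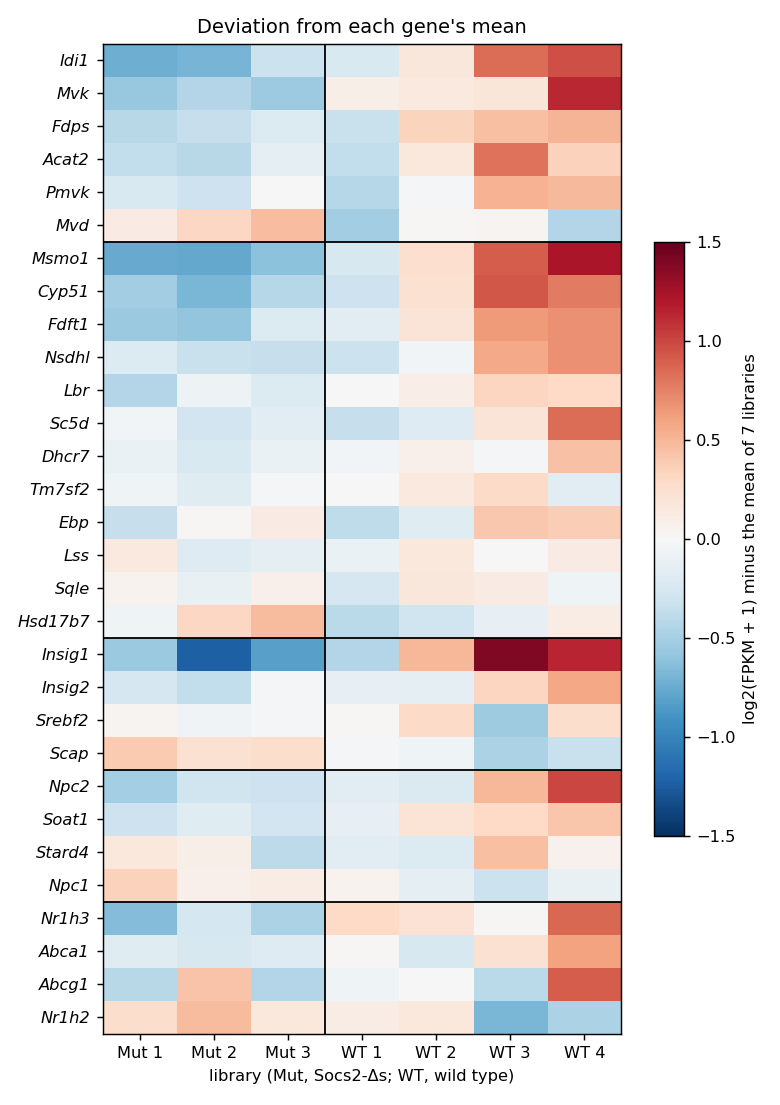
Deviation of each member from its mean over the 7 libraries on log2(FPKM + 1), members by role and libraries with Mut first. The median deviation of the 18 synthesis enzymes was -0.29, -0.30 and -0.16 in Mut libraries, against -0.28, 0.15, 0.36 and 0.46 in wild-type replicates 1 to 4.

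Of 43 other genes of cholesterol handling, 38 were tested, 18 of them higher and 20 lower in Mut, with a median log2 difference of -0.08 and 0 past the threshold against all 4 wild-type libraries. At an unadjusted p under 0.05, 5 were higher and 6 lower (limma), against 9.12% and 8.98% of all genes. Against replicates 1 and 2, 7 were higher and 5 lower at that limit, against 9.35% and 10.8% of all genes, and 1 of 38 passed the adjusted threshold, against 1.94% of all genes. Lipa, the lysosomal acid lipase that frees cholesterol from lipoprotein esters, had 126.2, 138.9 and 129.2 FPKM in Mut libraries, against 53.4, 52.0, 68.3 and 36.7 FPKM in wild type. Its log2 difference of 1.34 (SE 0.23) did not pass against all 4 (limma adjusted p = 0.102). Against replicates 1 and 2 it rose by 1.30 (adjusted p = 0.0194), with adjusted p of 0.0475 to 0.199 when 1 more library was left out, past the threshold only without Mut replicate 3.

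Srebf1, the factor of fatty acid synthesis related to SREBP2, had 133.1, 122.8 and 135.3 FPKM in Mut libraries, against 66.9, 95.9, 72.5 and 44.2 FPKM in wild type. Gramd1b, which moves sterol from the plasma membrane inward, had 3.75, 3.61 and 2.62 FPKM in Mut libraries, against 1.80, 1.76, 1.03 and 1.43 FPKM in wild type. Osbpl9, of the oxysterol-binding protein family, had 24.6, 23.7 and 22.4 FPKM in Mut libraries, against 32.6, 31.2, 38.8 and 34.4 FPKM in wild type. The groups did not overlap for any of these 3, which were named for their small p. Among the 38 tested, 8 were higher and 4 lower without overlap, against 12.5% and 10% of all genes. None of the 3 passed limma's test, with log2 differences of 0.94 (adjusted p = 0.171), 0.79 (adjusted p = 0.158) and -0.52 (adjusted p = 0.174).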

How the data were processed

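The authors deposited FPKM per gene for the 7 RNA libraries, in a table of 24187 rows with symbols and Entrez IDs. Libraries were TruSeq preparations of poly(A) RNA, per the labels' protocols. The tools listed in the submitters' processing notes are Bowtie2, STAR, CASAVA and DESeq2, with neither role nor version, and the build is mm9. Which annotation was used is not given in the sources used here. Another 9 samples of the series (ChIP-seq, DNase-seq) were left out.

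From the deposited FPKM, log2(FPKM + 1) was tested with limma 3.58.1 in R 4.3.3 (empirical Bayes with a mean-variance trend), Mut against wild type with no covariate. Genes averaging 1 FPKM or more over the 7 libraries, 13392 in all, entered, with Benjamini-Hochberg adjustment over all of them and a threshold of 0.05. This scale understates changes of low genes. The fit was tested on simulated data. Whole reads were recovered from the steps between FPKM values (tolerance 0.02 of a read, up to a factor common to a gene's libraries) and used for depth only. Reads shared with pseudogenes or overlapping genes cannot be told apart.

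The members and lists were chosen with earlier results of these data known. All members are described. Values in every library are given for members past the threshold or without overlap and for the largest differences of each role. Of the other cholesterol genes, the 4 of smallest p are named. Liver markers without Trf were summed after the values were seen. Promoters come from RefSeq, GRCm38.p6, 25 of 31 members matched. They were to be printed where they held the sterol element, but no member without overlap held one, so the 4 of smallest p with a CCAAT box were chosen after the values were seen. A protein comparison was not run. Alternatives were another pseudocount, no filter, other normalizations, no trend, libraries left out, a term for wild-type replicates 3 and 4, and a replicate block.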

Additional observations from a re-analysis of the deposited data

Results flagged for a closer look

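In wild-type replicate 4, Mvk was at 25.7 FPKM, where the next highest of the 4 wild-type libraries was at 12.8 FPKM, a gap of 0.943 of the range of the group. Alb, a liver transcript, was at 1137 FPKM in that library, against 80.9 FPKM in the next (0.934 of the range). The 9 liver markers without Trf summed to 2220 FPKM there, against 527.3 FPKM in the next (0.859 of the range). These 3 of 49 values examined in the wild-type group passed Dixon's limit for groups of 4 samples, and chance alone flags about 5% of groups. Alb is among the 9 liver markers, so these flags are not separate evidence. No sterol enzyme and no regulator was flagged.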

How the results depend on the processing

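The median log2 difference of the members, -0.34, stayed below 0 in all 15 planned settings. It was -0.14 with wild-type replicates 3 and 4 left out or marked by a term, and -0.22 with the replicate block. Wild-type replicate 4 stands alone in its block. The block therefore gives the same log2 differences as leaving that library out, with other p-values. Likewise, the term gives the log2 differences found without replicates 3 and 4. Dropping the filter or the trend cannot change the log2 difference of a member. The 15 settings are therefore not all separate. Leaving out 1 library gave -0.46 (without wild-type replicate 1) to -0.22 (without wild-type replicate 4). Members called stayed at 0 in every planned setting except that Mvk, 1 member, was called lower without replicates 3 and 4. The lowest adjusted p of any member in the other settings was 0.114.

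Over all genes, the counts were 6 higher and 0 lower. They were 1 higher with a pseudocount of 0.1 or without the filter, 25 higher and 3 lower with quantile normalization, 169 higher and 91 lower without replicates 3 and 4, and 0 higher with the term or the block. Leaving out 1 library gave 0 to 31 higher (0 without any Mut library or wild-type replicate 1 or 2, 17 without replicate 3, 31 without replicate 4) and 0 to 1 lower.

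Of the members, 23 of 30 kept their sign in every planned setting, though several settings share the same log2 differences. Without replicates 3 and 4, or with the term, Pmvk (0.0402), Ebp (0.21), Sc5d (0.11) and Stard4 (0.14) turned positive. With the block, as without wild-type replicate 4, Sqle (-0.00620), Srebf2 (0.0679) and Abcg1 (0.0160) changed sign. Leaving out 1 library gave -0.0709 to 0.0721 for Sqle, -0.27 to 0.0124 for Ebp, -0.20 to 0.0731 for Srebf2, -0.19 to 0.0840 for Stard4 and -0.53 to 0.0160 for Abcg1. The cause was not tested.

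Same-numbered Mut and wild-type libraries had correlations of their deviations of 0.350, -0.104 and 0.283. Mut replicates 1 and 3 correlated best with the wild-type library of the same number. Mut replicate 2 correlated best with wild-type replicate 4 (0.338). The replicate numbers were therefore not taken as pairs in the main fit. Whether same-numbered libraries shared a batch was not tested. The members had 170 to 16101 recovered reads per library, known only up to a factor per gene. Counting error was not compared with the spread between libraries.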
